A study of Mus musculus with 4 samples.

Results

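The LIF receptor, STAT3 and Pim kinase genes are 9 genes chosen by symbol: the receptor genes Lifr and Il6st, the transcription factor gene Stat3, the feedback inhibitor gene Socs3, the kinase genes Pim1, Pim2 and Pim3, and the target genes Junb and Bcl3. All 9 were found among the 23420 genes of the count tables, and all 9 passed the filter on low counts that left 14256 genes for testing. RNA was sequenced from E14 cells, a wild-type mouse embryonic stem cell line grown on gelatin without feeder cells, in serum medium that held leukemia inhibitory factor (LIF). One group was treated for 24 h with all-trans retinoic acid (ATRA) at 1 µM, and the other was taken at 0 h, with 2 libraries each. The titles give this micromolar dose, while another label has it in millimolar. Treatment and culture time differ between the groups together and cannot be told apart. The labels do not say whether LIF stayed in the medium during those 24 h, nor whether 0 h cells received the vehicle, dimethyl sulfoxide.

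LIF holds mouse embryonic stem cells in self-renewal through a receptor made of the LIF receptor chain (Lifr) and gp130 (Il6st), the signalling chain shared by the interleukin-6 family of cytokines. Janus kinases bound to the receptor phosphorylate STAT3, which enters the nucleus and activates its target genes. Among these targets is Socs3, whose protein binds gp130 and shuts the signal off again. Pim1 and Pim3 are also LIF and STAT3 targets in these cells, and Pim kinases are active as soon as they are made, so their output follows their mRNA and protein level closely.

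Counts in genes came to 13337972 and 11086233 in ATRA replicates 1 and 2, and to 31005634 and 21484812 in control replicates 1 and 2. No label says that replicates came from separate cultures, so the p-values rest on a spread between libraries that may be technical. Fold changes over all genes followed the GC content of the transcript (Spearman's rho −0.745 over 14145 genes, which share the 4 libraries and are not independent). The median log2 fold change, ATRA over control, was −1.72 in the tenth of genes with the highest GC content, which holds Socs3, Pim3, Junb and Bcl3, and 0.60 in the third decile, which holds Lifr. Fold changes are therefore given uncorrected and after a per-library correction for GC content, which takes out any GC-related difference, whatever its source. Cyp26a1, a retinoic acid target gene whose enzyme degrades retinoic acid, was at 201.5 and 331.5 CPM (counts scaled to library size) with ATRA against 8.21 and 9.09 CPM in controls. Of the embryonic stem cell markers, all 8 were tested and 2 fell, Zfp42 and Esrrb (6 after correction), against 0.407% (7.7%) of all tested genes. Their summed level, not GC-corrected, was 1668 and 1330 CPM in ATRA libraries and 3560 and 3592 CPM in controls. Pou5f1 held the largest part of the control sums, at 1279 and 1251 CPM against 307.5 and 105.7 CPM with ATRA. Its log2 fold change of −2.61 did not pass uncorrected (edgeR adjusted p = 0.0621). After correction it was −1.27 and passed (edgeR adjusted p = 0.0113). Sox2 and Dppa5a, named after their values were seen, had log2 fold changes of −0.13 and 0.01 uncorrected and −0.025 and −0.047 corrected.

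Pim2 and Socs3 fell in the ATRA libraries and the other 7 genes did not pass the uncorrected test (quasi-likelihood test of edgeR, Benjamini-Hochberg adjustment over all tested genes, adjusted p under 0.05). The 2 lower calls among 9 genes are to be read against 0.407% of all tested genes called lower. A rise was called for 0 of the 9 genes and for 0.723% of all tested genes, and 1.13% of all tested genes were called in either direction. At an unadjusted p under 0.05, 6 of the 9 were lower and 0 higher, where 41.7% of all tested genes passed in either direction. DESeq2 called 6 of the 9 lower (Stat3, Socs3, Pim2, Pim3, Junb and Bcl3), against 18% of all tested genes, and 0 higher, against 12.5%. After GC correction 5 of the 9 fell (Lifr, Il6st, Stat3, Socs3 and Pim2), where 7.7% of all tested genes were called lower, and Pim1 rose, where 8.56% were called higher; 16.3% were called in either direction. All 6 corrected calls were lost without control replicate 1 or without control replicate 2, with 35 and 25 genes left over all (edgeR adjusted p of the 6 genes from 0.0814 to 0.27). Without either ATRA replicate the spread comes from the controls alone, and 10289 or 7302 genes passed uncorrected. The balance of calls over all genes, 103 higher and 58 lower, was 232 and 371 with relative log expression factors and 1777 and 2573 with DESeq2. In both readings the 2 ATRA libraries lay below the 2 controls for 8 of the 9 genes, the same in 41.5% of all tested genes uncorrected and 34.8% corrected. Pim1 was the gene with both ATRA libraries above both controls, as in 40% of all tested genes uncorrected and 35.5% corrected. The median log2 fold change of the 9 genes was −2.31 uncorrected and −0.93 corrected, against −0.02 and 0.01 over all tested genes. In these bulk samples fewer cells carrying a transcript and less of it per cell cannot be told apart.

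**Figure D1:**
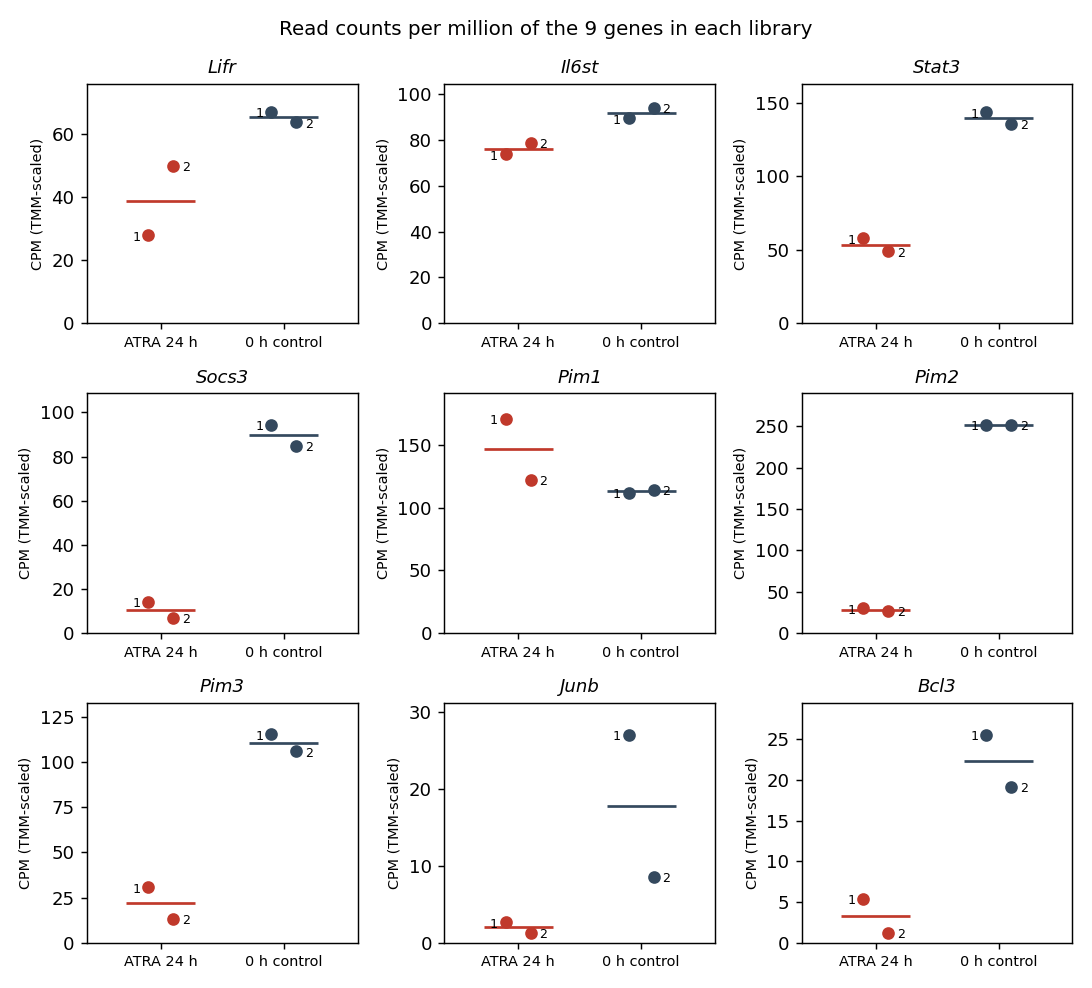
Level of each of the 9 genes in CPM scaled by TMM factors (vertical axis, starting at 0), with the ATRA libraries in red and the 0 h controls in dark blue, replicates numbered and group means drawn as lines. Pim2 lies at 29.8 and 26.6 CPM with ATRA against 252.3 and 251.8 CPM in controls, and Pim1 is the gene with both ATRA libraries above both controls.

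**Figure D2:**
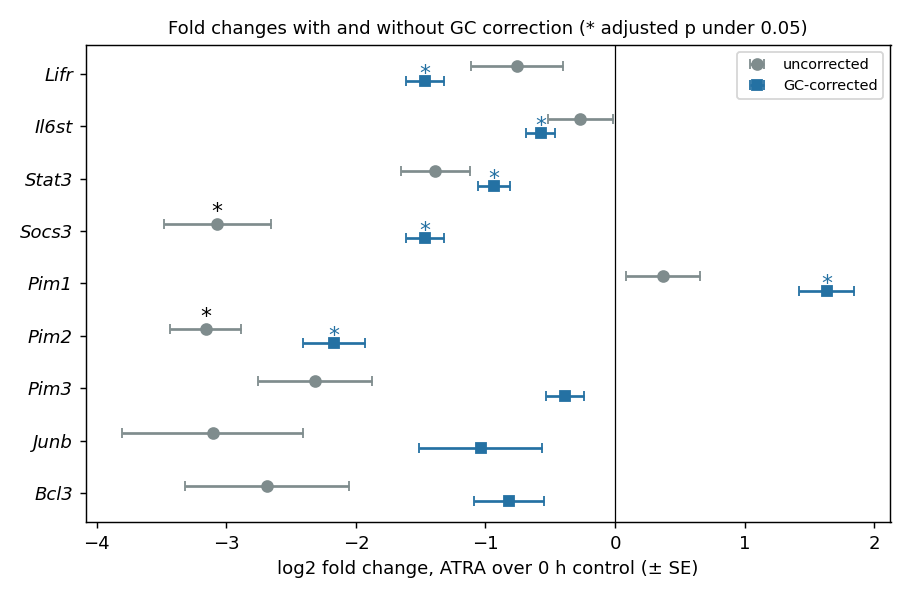
Log2 fold change, ATRA over control, with its standard error, uncorrected (grey circles) and GC-corrected (blue squares); a star marks an adjusted p under 0.05. Pim2 and Socs3 carry a star in both fits, while Lifr, Il6st, Stat3 and Pim1 carry one after correction.

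Lifr encodes the chain that binds LIF. Its gene spans bases 7090614 to 7197489 of chromosome 15, plus strand (GENCODE M21, GRCm38). It stood at 27.9 and 49.8 CPM in the ATRA libraries and at 67.1 and 63.7 CPM in the controls. Both ATRA libraries were below both controls, with ATRA replicate 2 closer to the controls than to ATRA replicate 1. ATRA over control was −0.75 ± 0.36 (SE) on the log2 scale, with an edgeR adjusted p of 0.154. GC-corrected levels were 26.8 and 32.7 CPM with ATRA against 85.1 and 79.5 CPM in controls, so the ATRA libraries moved closer together. Lifr fell by 1.47 after correction (SE 0.15, edgeR adjusted p = 0.0108; 0.12 and 0.11 without control replicate 1 and 2). Without ATRA replicate 1 the uncorrected value was −0.41 and without ATRA replicate 2 it was −1.22.

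Il6st, the gene of gp130, spans bases 112464070 to 112510086 of chromosome 13, plus strand. Libraries with ATRA held 73.9 and 78.7 CPM, against 89.5 and 94.1 CPM in controls. Uncorrected, this was the smallest ratio of means among the 8 genes with lower ATRA libraries, at −0.27 ± 0.25 on the log2 scale (edgeR adjusted p = 0.429). After GC correction it fell by 0.57 (SE 0.11, edgeR adjusted p = 0.0335; 0.269 and 0.27 without control replicate 1 and 2). Per transcript length, Lifr stood to Il6st in a ratio of 0.339 and 0.569 in the ATRA libraries and of 0.674 and 0.608 in the controls, so Lifr was the lower chain in all 4 libraries.

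Stat3, on chromosome 11 from 100885098 to 100939540, minus strand, encodes the transcription factor that carries the LIF signal and also activates its own gene. It was at 57.8 and 49.1 CPM in the ATRA libraries and at 143.7 and 136 CPM in the controls. The replicates of each group lay close together and the ATRA mean was 38.2% of the control mean. With a log2 fold change of −1.39 ± 0.27, Stat3 missed the threshold uncorrected (edgeR adjusted p = 0.0596) and fell by 0.93 after GC correction (SE 0.12, edgeR adjusted p = 0.0163; 0.179 and 0.152 without control replicate 1 and 2). With relative log expression factors in place of TMM factors the uncorrected adjusted p was 0.0493. Stat3 shares 72 exonic bases with Stat5a, its neighbour on the opposite strand.

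Socs3, the feedback inhibitor of gp130 signalling, lies on chromosome 11 from 117966079 to 117970047, minus strand. It had 200 and 68 counts in the ATRA libraries and 3010 and 1907 counts in the controls, which is 14.1 and 7.01 CPM with ATRA against 94.4 and 84.9 CPM in controls. The groups did not overlap, and the ATRA mean was 11.8% of the control mean. On the log2 scale the difference was −3.07 ± 0.41 (edgeR adjusted p = 0.0427), and it passed with each single library left out. With edgeR's older quasi-likelihood method, the package's default, the adjusted p was 0.0537 and the call was lost. After GC correction the levels were 16.3 and 19.9 CPM with ATRA against 48 and 51.1 CPM in controls, and the log2 fold change was −1.47 ± 0.15 (edgeR adjusted p = 0.0109; 0.119 and 0.124 without control replicate 1 and 2). The fitted fold difference was 2.76 corrected, and the uncorrected means differed 8.48-fold.

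Per transcript length, Socs3 counts stood to Stat3 counts in a ratio of 0.58 and 0.338 in the ATRA libraries and of 1.55 and 1.48 in the controls. The GC contents of the 2 transcripts are 58.7% and 52.5%, this ratio was not GC-corrected, and the difference between the genes was not tested.

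The Socs3 promoter window is shown because it held the one match among the 9 genes to the STAT core motif, TTCNNNGAA, which reads the same on both strands. RefSeq windows from 250 bases before to 50 after each annotated start (GRCm38.p6) were found for all 9 genes, 11 windows in all, since Lifr and Pim1 have 2 each. One of the 11 held the motif, against 8.3% of all 32851 windows. The match lies at positions −154 to −146 from RefSeq's start, at chr11:117969512-117969520, minus strand. GENCODE's protein-coding Socs3 transcript starts downstream of it, while a longer processed transcript, which sets the gene's bounds given above, spans it as intron. The sequence below runs over chr11:117969472-117969560 with the match in capitals.
Socs3: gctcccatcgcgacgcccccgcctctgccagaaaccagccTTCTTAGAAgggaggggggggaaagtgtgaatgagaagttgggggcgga
The stricter form TTCCNGGAA was found in 0 of the 11 windows and in 1.15% of all windows. Direct repeats of AGGTCA, the half-site of retinoic acid receptors, spaced by 1, 2 or 5 bases and read on both strands, were found in 0 of the 11. They are rare in windows of this size, at 0.0396%, 0.00913% and 0.00913% of all windows. A match is only a string of letters, and its absence here says nothing of sites outside these windows.

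Pim2 had the most negative fold change of the 9 genes in both fits, and its kinase promotes cell survival and protein synthesis. The gene lies on chromosome X from 7878262 to 7883432, plus strand. Counts were 421 and 258 in the ATRA libraries and 8048 and 5654 in the controls, or 29.8 and 26.6 CPM with ATRA against 252.3 and 251.8 CPM in controls. Replicates agreed closely in both groups, with 28.2 ± 2.23 CPM after ATRA and 252.1 ± 0.3 CPM in controls (SD, n = 2 each). That is −3.16 ± 0.28 on the log2 scale (edgeR adjusted p = 0.0196). After GC correction Pim2 fell by 2.17 (SE 0.24, edgeR adjusted p = 0.0125; 0.0814 and 0.0989 without control replicate 1 and 2), with means 4.5-fold apart. A lower log2 fold change than that of Pim2 was found for 0.968% of tested genes uncorrected and 1.37% corrected. Uncorrected, the call held with each single library left out, at −3.26 to −3.07.

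Pim1, on chromosome 17 from 29490753 to 29496112, plus strand, encodes a kinase of the same family. It was at 171 and 122.3 CPM in the ATRA libraries and at 112.2 and 114.4 CPM in the controls. Both ATRA libraries were above the controls, the second by little, and the log2 fold change of 0.37 ± 0.28 did not pass (edgeR adjusted p = 0.334). After GC correction the levels were 182.3 and 273.7 CPM with ATRA against 69.9 and 77 CPM in controls, and Pim1 rose by 1.63 (SE 0.21, edgeR adjusted p = 0.0163; 0.148 and 0.131 without control replicate 1 and 2). In that fit 96.2% of tested genes had a lower fold change than Pim1. ATRA replicate 1 stood to ATRA replicate 2 in a ratio of 1.4 uncorrected and 0.666 corrected, so the order of these libraries turned round. The uncorrected value was 0.10 without ATRA replicate 1 and 0.61, which passed, without ATRA replicate 2. Pim1 shares 488 exonic bases with the antisense gene Gm26885.

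Pim3, on chromosome 15 from 88862186 to 88865726, plus strand, had 436 and 130 counts after ATRA and 3678 and 2378 counts in controls. Its levels were 30.8 and 13.4 CPM with ATRA against 115.3 and 105.9 CPM in controls, with the ATRA libraries a factor of 2.3 apart. The log2 fold change was −2.31 ± 0.44 (edgeR adjusted p = 0.0597) uncorrected and −0.39 ± 0.15 after GC correction (edgeR adjusted p = 0.124). With relative log expression factors the uncorrected edgeR adjusted p was 0.047. Corrected levels were 39.4 and 43.9 CPM with ATRA and 48.7 and 59.9 CPM in controls. Its transcript has a GC content of 61.9%, in the decile whose median was −1.72. Without ATRA replicate 1 the uncorrected value was −3.06, and it passed without either ATRA replicate or without control replicate 2; corrected, it passed without ATRA replicate 2 (−0.44).

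Within the Pim family the leading transcript was another in each group. Pim1 made up 73.8% (95% Wilson interval 72.3 to 75.3) and 75.3% (73.2 to 77.4) of the counts of the 3 genes in the ATRA libraries and 23.4% (22.7 to 24.1) and 24.2% (23.4 to 25.1) in the controls. Pim2 made up 12.9% and 16.4% with ATRA and 52.6% and 53.3% in controls. Pim1 was thus the main Pim transcript by counts in both ATRA libraries and Pim2 in both controls. With 2 libraries against 2, an exact permutation test of a share (two-sided) gives p = 0.333, the smallest this design allows. The summed level of the 3 genes, not GC-corrected, was 231.6 and 162.3 CPM with ATRA and 479.8 and 472.2 CPM in controls. Added up after GC correction, the 3 levels lay below both controls in ATRA replicate 1 and above both controls in ATRA replicate 2. Corrected Pim2 was at 30.8 and 50 CPM with ATRA against 176.9 and 184.6 CPM in controls, and corrected Pim1 and Pim3 are given above. Per transcript length Pim1 still held 69.9% and 71% with ATRA and 19.6% and 20.3% in controls. Pim1 and Pim2 have similar transcript GC contents, 56% and 54.7%, and their log2 fold changes were 0.37 and −3.16 uncorrected and 1.63 and −2.17 corrected. A direct test of the difference between the genes was not run.

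**Figure D3:**
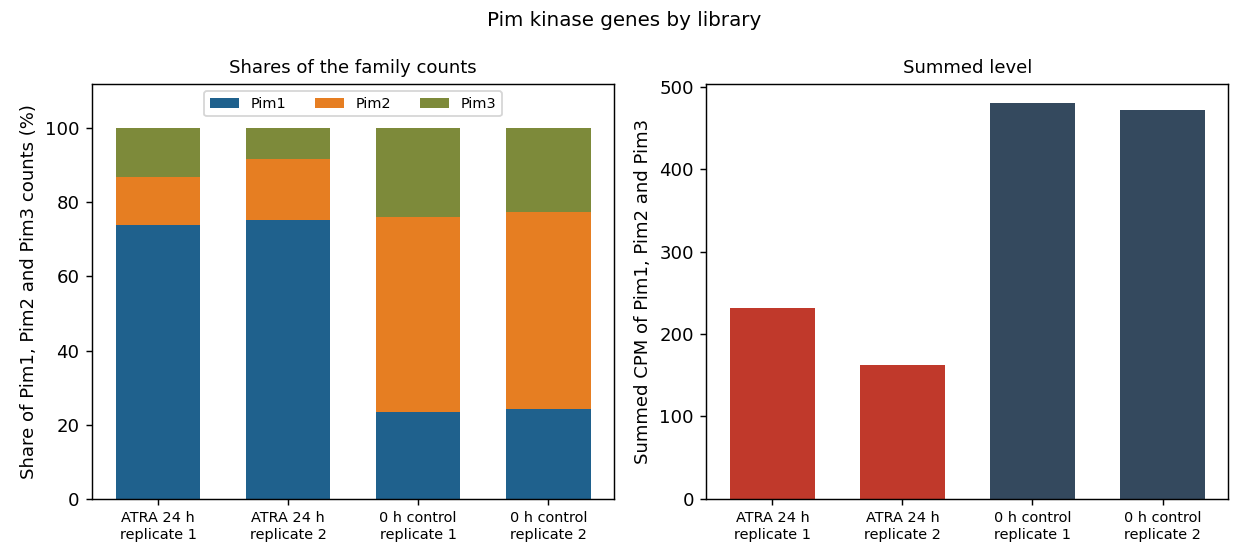
Left, share of the counts of Pim1, Pim2 and Pim3 that each gene holds in each library, in percent; right, summed CPM of the 3 genes. Pim1 holds 73.8% and 75.3% in the ATRA libraries and 23.4% and 24.2% in the controls, while the sum is 231.6 and 162.3 CPM with ATRA and 479.8 and 472.2 CPM in controls. Shares and sums are not GC-corrected.

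The 100 bases before the GENCODE starts of Pim1 (chr17:29490653-29490752) and Pim2 (chrX:7878162-7878261), both plus strand and from the RefSeq windows, are shown because these kinases of 1 family were called in opposite directions after GC correction. CG dinucleotides, the sites of DNA methylation, are in capitals.
Pim1: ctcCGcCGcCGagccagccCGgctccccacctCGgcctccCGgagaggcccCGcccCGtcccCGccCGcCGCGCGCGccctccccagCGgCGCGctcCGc
Pim2: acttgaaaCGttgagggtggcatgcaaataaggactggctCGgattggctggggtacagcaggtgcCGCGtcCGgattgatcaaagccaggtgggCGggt
The Pim1 stretch holds 18 CG dinucleotides at a GC content of 87%, and the Pim2 stretch 6 at 58%. Over the full windows at the upstream start the counts were 42 for Pim1 and 31 for Pim2, against a median of 7 over all windows. Methylation was not measured, and the letters describe the reference genome, not these cells.

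Junb, an AP-1 transcription factor gene that also responds early to serum, lies on chromosome 8 from 84974484 to 84978718, minus strand. It had 38 and 13 counts in the ATRA libraries and 861 and 193 counts in the controls. That is 2.69 and 1.34 CPM with ATRA against 27 and 8.6 CPM in controls, so the controls differed 3.14-fold from each other. The log2 fold change of −3.10 ± 0.70 did not pass (edgeR adjusted p = 0.0662), nor did −1.04 ± 0.47 after GC correction (edgeR adjusted p = 0.171). Control replicate 1 carried much of the difference: without it the corrected value was −0.33, and without control replicate 2 it was −1.52. Uncorrected, the value without control replicate 2 was −3.72 and passed. Junb shares 173 exonic bases with Prdx2 on the opposite strand.

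Bcl3, a nuclear IκB-family partner of NF-κB p50 and p52, lies on chromosome 7 from 19808462 to 19822770, minus strand. It was at 5.44 and 1.24 CPM in the ATRA libraries and at 25.6 and 19.2 CPM in the controls. The ATRA libraries differed 4.4-fold, more than for any other of the 9 genes, and they rest on 77 and 12 counts. The log2 fold change was −2.69 ± 0.63 (edgeR adjusted p = 0.0665), and −0.82 ± 0.27 after GC correction (edgeR adjusted p = 0.0909). Without ATRA replicate 1 the uncorrected value was −4.20 and without ATRA replicate 2 −2.04. Without control replicate 1 it was −2.49 and without control replicate 2 −2.90. Corrected, it passed without ATRA replicate 1 (−1.34). Bcl3 shares 161 exonic bases with the antisense gene Gm16175.

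**Figure D4:**
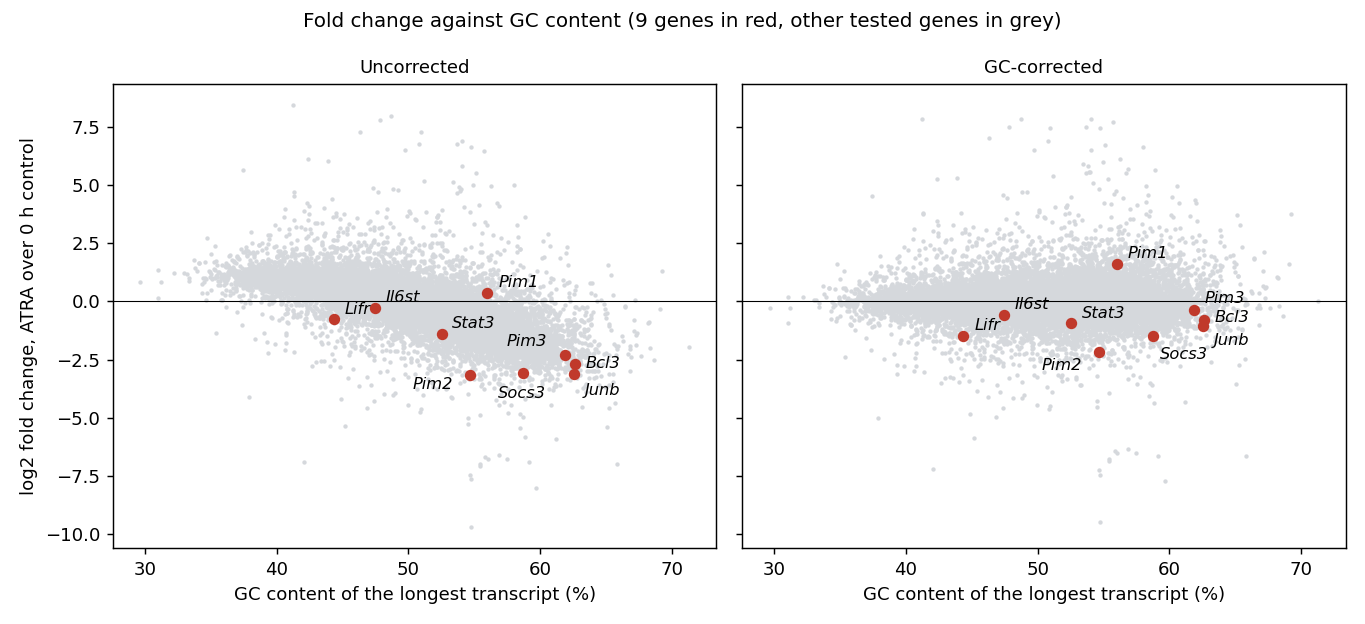
Log2 fold change, ATRA over control, against transcript GC content in percent for all tested genes with a GC value (grey) and the 9 genes (red), uncorrected on the left and GC-corrected on the right. The uncorrected cloud slopes down with GC content; Pim3, Junb and Bcl3 lie at −2.31, −3.10 and −2.69 there and at −0.39, −1.04 and −0.82 corrected, and Pim2 at −3.16 and −2.17.

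Set by length, the 9 transcripts ranked differently in the groups (uncorrected CPM per kilobase of the longest coding transcript). In the ATRA libraries Pim1 led with 63.4 and 45.3, followed by Pim2 with 14.6 and 13. Pim3, Stat3 and Il6st then spanned 5.52 to 12.7 and overlapped one another. Socs3 and Lifr overlapped between 2.75 and 5.54, and Bcl3 and Junb lay between 0.669 and 2.94, with the ends of these ranges touching. In the controls Pim2 led with 123.4 and 123.2, followed by Pim3 with 47.5 and 43.6, Pim1 with 41.6 and 42.4 and Socs3 with 37 and 33.3. Stat3 was next at 23.8 and 22.5, Bcl3, Junb and Il6st overlapped between 4.75 and 14.9, and Lifr was at 6.95 and 6.59, inside the range of Junb. These levels carry each library's GC trend.

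Genes with profiles most like those of Lifr and Socs3 were sought among 10827 genes with a mean of at least 5 CPM, by the Euclidean distance between centred log2 CPM profiles over the 4 libraries. Nearest to Lifr were Wisp1 (distance 0.114), Zfp459 (0.12) and Morc1 (0.144), all with transcript GC content between 40.8% and 46.2%. Their ATRA replicate 2 was above ATRA replicate 1, as for Lifr, which follows from choosing them by this distance. Nearest to Socs3 were Psmb10 (0.202), Trib3 (0.218) and Zfp710 (0.24), with GC content between 55.5% and 58.2%. Psmb10, for one, stood at 14 and 8.04 CPM with ATRA and at 109.8 and 100.1 CPM in controls. The uncorrected profiles follow GC content, and likeness over 4 libraries is a description only.

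Of 95 other genes of the pathway in 9 lists, 88 were tested; 0 rose and 3 fell uncorrected, and 8 rose and 9 fell after GC correction. Of these 17 corrected calls, Sgk1 alone was kept without control replicate 1 or without control replicate 2, so the other corrected calls below all rest on having both controls. Of the 3 uncorrected calls, 0 were kept without control replicate 1, and Egr1 was the 1 kept without control replicate 2. The median log2 fold change of the 88 was −0.63 uncorrected and −0.15 corrected, against −0.02 and 0.01 over all tested genes. As shares of the 88, the corrected calls were 9.09% higher and 10.2% lower, close to the 8.56% and 7.7% of all tested genes. With edgeR's unadjusted p under 0.05, the uncorrected fit held 2 of the 6 tested ligand genes, 1 of 5 other receptors, 7 of 12 kinases and relays, 1 of 6 other STATs and 7 of 15 inhibitors. It held 14 of 17 other STAT3 targets, 4 of 8 JunB partners, 5 of 9 Bcl3 partners and 6 of 11 Pim substrates. Fos is in both the STAT3 target list and the JunB partner list. With Fos counted a single time, the 9 lists make 46 of the 88 genes (52.3%), against 41.7% of all tested genes. DESeq2 called 33 of the 88 (37.5%), against 30.5% of all tested genes. The genes named below follow a rule described with the processing.

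Upstream of the receptor, Lif itself, named after its values were seen, was at 13.4 CPM with ATRA and 17.9 CPM in controls on average, with a log2 fold change of −0.41 that did not pass (0.12 corrected). Of 6 tested ligand genes 0 passed uncorrected, and 1 rose and 0 fell after correction. Clcf1, the gene of a cytokine of the interleukin-6 family, also named after its values were seen, had 0 counts in both ATRA libraries against 44 in the controls, that is, at least 6.43-fold lower when 3 counts are taken as the floor for the group (counting error only). It did not pass in either fit. Of 5 other receptor genes 0 passed in either fit, and the most abundant, the ciliary neurotrophic factor receptor gene Cntfr, was at −0.59 uncorrected and 1.12 corrected.

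Among 12 kinases and signal relays 0 passed uncorrected. After correction the Janus kinase genes Jak1 and Jak2, whose products phosphorylate STAT3 at the receptor, rose by 0.51 and 0.66 (edgeR adjusted p = 0.0407 and 0.0377), and the Src-family kinase gene Yes1 fell by 0.88 (0.0226). Uncorrected, Jak1 was at 0.81, Jak2 at 1.36 and Yes1 at 0.10, so the sign of Yes1 turned with the correction. Jak2 had 41.1 and 64.2 CPM with ATRA against 21.4 and 19.5 CPM in controls. Both ATRA libraries lay above both controls for Jak2, as in 40% of all tested genes. The other Janus kinase genes, Jak3 and Tyk2, named after their values were seen, were at −2.49 and −1.50 uncorrected and −0.82 and −0.17 corrected, and passed in neither fit.

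Of the 6 other STAT genes, 0 passed uncorrected, and after correction 1 rose and 1 fell. Stat4, the riser, stood at 27.7 and 38.4 CPM with ATRA against 10.6 and 9.09 CPM in controls, and rose by 1.18 after correction (edgeR adjusted p = 0.0191, against 1.74 uncorrected). Of 15 tested inhibitor genes 0 passed uncorrected. After correction Socs7 rose by 0.76 (edgeR adjusted p = 0.0474, against 0.01 uncorrected) and Socs1, a JAK inhibitor of the same family as Socs3, fell (0.0496). Socs1 had 3 and 0 counts in the ATRA libraries and 90 and 42 counts in the controls, a 19.3-fold lower level with a 95% counting interval from 6.46 to 94.8, uncorrected for GC.

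Of 17 other genes reported as STAT3 targets in stem cells, Egr1, Sgk1 and Sp5 fell uncorrected, against 0.407% of all tested genes. Sgk1, a serum- and glucocorticoid-responsive kinase gene, was at 91.3 and 100.8 CPM with ATRA and at 350.9 and 352 CPM in controls, and it fell by 1.87 uncorrected (SE 0.26, edgeR adjusted p = 0.0431) and by 2.04 corrected (SE 0.09, 0.00191). The immediate early gene Egr1 and the Wnt target gene Sp5 fell by 2.36 and 2.41 uncorrected (edgeR adjusted p = 0.0343 and 0.0433) and were at −0.79 and −0.34 corrected, where they did not pass. After correction 2 genes rose, the survival gene Mcl1 (1.33, edgeR adjusted p = 0.0231, against 1.5 uncorrected) and the homeobox gene Gbx2 (2.85, 0.0469, against 0.77 uncorrected). Gbx2 had 33.7 and 56.5 CPM with ATRA against 28.6 and 24.4 CPM in controls, and corrected levels of 39.6 and 166.5 CPM with ATRA, far apart, against 13.9 and 14.4 CPM in controls. The 5 that fell were Sgk1 with Klf5 (−1.77), Tfcp2l1 (−1.14), Ier3 (−1.45) and Ccnd1 (−0.78), the last 4 named after their values were seen. Over all tested genes 8.56% were called higher and 7.7% lower after correction. Mcl1 had 1133 and 1870 CPM in the ATRA libraries against 519.8 and 540.6 CPM in controls.

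Among 8 tested partners of JunB, 0 passed uncorrected and Jund rose after correction (1.30, edgeR adjusted p = 0.0265, against −0.79 uncorrected). Among 9 partners of Bcl3, 0 passed in either fit, and the most abundant, the p50 precursor gene Nfkb1, was at −0.70 uncorrected and −0.16 corrected. Among 11 Pim substrates and functional neighbours, 0 passed uncorrected, and Eif4ebp1, the gene of a translation repressor, fell after correction by 2.68 (SE 0.51, edgeR adjusted p = 0.0325, against −2.49 uncorrected). Its levels were 69.6 and 26 CPM with ATRA and 281.7 and 257.8 CPM in controls.

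**Figure D5:**
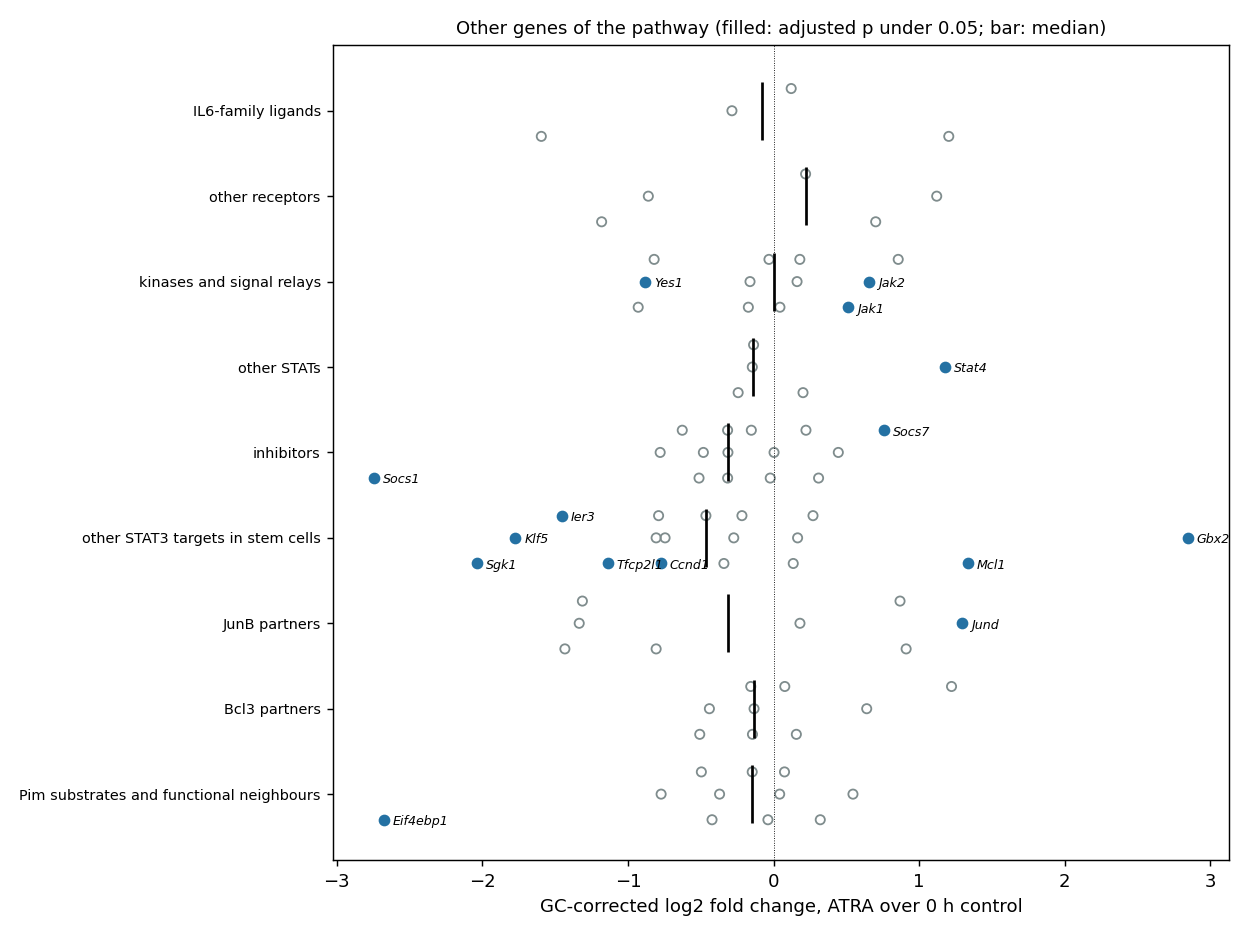
GC-corrected log2 fold change, ATRA over control, of the tested genes of the 9 pathway lists; filled points passed the test, open points did not, and black bars are list medians. Clcf1, with 0 counts in both ATRA libraries, and 2 other genes are not drawn as points; the filled points lie on both sides of 0, from −2.74 for Socs1 to 2.85 for Gbx2.

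Markers of other cell types were read in the same libraries, where 0.723% of all tested genes were called higher uncorrected and 8.56% after correction. The sums below are not GC-corrected. Extraembryonic endoderm markers summed to 52.9 and 79.9 CPM with ATRA and to 25.5 and 25.9 CPM in controls. Dab2 made up most of this sum, at 42.3 and 66.4 CPM with ATRA against 21.7 and 22.3 CPM in controls. Of 5 tested endoderm genes 0 passed uncorrected and 4 rose after correction, and Ttr was at 0 in all libraries. Neural progenitor markers summed to 280.7 and 389.3 CPM with ATRA against 270.2 and 226.9 CPM in controls, with 1 of 5 (Sox1) rising, and 3 after correction. Nes, named after its values were seen, made up most of this sum, at 214.2 and 294.7 CPM with ATRA against 248.4 and 207.1 CPM in controls. Its log2 fold change was 0.16 uncorrected and 1.48 corrected, and it passed in neither fit. Trophoblast markers summed to 25.7 and 23.2 CPM with ATRA against 21.3 and 21.4 CPM in controls, with 0 of 5 passing (1 rose corrected) and Tpbpa at 0 throughout. Fibroblast or feeder markers summed to 109.6 and 111.4 CPM with ATRA against 216.6 and 156.2 CPM in controls, with 0 of 7 passing (2 rose corrected). Their list median was 0.17 uncorrected and 0.82 corrected, so sum and median pointed opposite ways. Col1a1 was at 40.1 and 24.1 CPM with ATRA against 141.1 and 91.9 CPM in controls, and Dcn, like it named after its values were seen, at 7.70 and 7.12 CPM with ATRA against 0.909 and 1.51 CPM in controls. GC-corrected, Col1a1 was at 46.4 and 69.1 CPM with ATRA against 71.1 and 55 CPM in controls. It passed in neither fit. The part of these markers in the values of the 9 genes was not tested.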

How the data were processed

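Per the labels, total RNA was extracted with Trizol and made into standard Illumina libraries. The authors deposited a table of raw read counts per gene symbol for each library. Tools listed in the submitters' processing notes, without roles, are HTSeq 0.6.0, TopHat2 2.0.7, Cuffdiff 2.0.2 and Cufflinks 2.0.2, with mm10 as the build. Which annotation and strand setting were used is not given in the sources used here. Overlapping genes on opposite strands may therefore share reads. The 5 summary lines of each table were left out. Reads in no annotated feature made up 64.7% and 66.2% of counted reads in the ATRA libraries and 63.4% and 63.9% in the controls, and 3 counts stand for 0.225 and 0.271 CPM in ATRA libraries and for 0.0968 and 0.14 CPM in controls. Intervals and floors cover counting error only. Replicates differed by more than sampling noise (chi-square per degree of freedom 62.9 for ATRA and 8.34 for controls).

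Counts were fitted with edgeR 4.0.16 in R 4.3.3 (default expression filter, TMM factors, robust quasi-likelihood F test, no covariate, Benjamini-Hochberg adjustment over all tested genes, threshold 0.05). The package's current quasi-likelihood method was used in place of its default after both had been seen, since it is the one an earlier analysis of these data used. SE is the size of the log2 fold change over the root of its F statistic. For the GC correction, each library's deviation in log2 CPM (prior count 2) was fitted on transcript GC content by a robust natural spline with 5 degrees of freedom (MASS 7.3.60.0.1), among genes above log2 CPM 1, with the extreme percentiles held, and entered as offsets. GC content and length are those of the longest coding transcript in GENCODE M21 (GRCm38, the assembly of mm10); 21777 symbols matched directly, 1260 through a synonym and 383 not. Other settings included DESeq2 1.42.0. The scripts were tested on simulated counts.

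The members and lists were chosen with earlier results of these data known. Named beside the 9 genes are, per list, the called genes (in either fit, at most the 3 with the smallest p in each direction), or the most abundant tested gene where none was called. Results of 2 further genes under this rule are not reported here; list counts and medians include them.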

Additional observations from a re-analysis of the deposited data

How the results depend on the processing

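In the 16 other settings tried, each of the 9 genes kept the sign of its fold change. The 3 counts of calls moved much more. Over all genes, over the 9 genes and over the pathway lists they were 161, 2 and 3 as reported, 2319, 6 and 17 with the GC correction, 603, 4 and 9 with relative log expression factors, and 4350, 6 and 33 with DESeq2. With edgeR's older quasi-likelihood method, added after seeing the data, they were 86, 1 and 1, and 2382, 6 and 16 with the GC correction. The replicate numbers come from the titles and do not show a shared culture or day (correlation of same-number deviations 0.244 over 12408 genes, and −0.0705 after GC correction). With the replicate block the counts were 4401, 6 and 34, and 2638, 6 and 21 with the block and the GC correction. With single libraries left out, where the remaining library of a group is taken to vary as the other group does, the counts ran from 125 to 10289, 2 to 8 and 1 to 64 uncorrected, and from 25 to 6655, 0 to 7 and 1 to 34 with the GC correction. With the GC correction Pim2 and Socs3 lost their calls without control replicate 1 (edgeR adjusted p = 0.0814 and 0.119) and without control replicate 2 (0.0989 and 0.124), where 35 and 25 genes passed in all; the cause was not tested. Without ATRA replicate 1 and 2, 6655 and 5031 genes passed with that correction. The share of higher genes among all calls was also lower with relative log expression factors, 232 of 603 against 103 of 161. Junb and Bcl3, with 13 and 12 counts in ATRA replicate 2, are the members most limited by depth.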
